A study of Mus musculus with 9 samples.

Results

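The genes described here are 43 protein-coding genes of 7 solute carrier families that move amino acids or close relatives of amino acids across membranes: Slc1, Slc3, Slc6, Slc7, Slc36, Slc38 and Slc43. They were taken by symbol alone, as every protein-coding row of the study's gene table whose symbol belongs to one of these families, and make up 43 of its 17511 genes, of which 14532 are protein-coding. Another 20 symbols of the same families have no row in that table and were not analysed here. The family names cover more than amino acids: Slc6a4 carries serotonin, Slc6a8 creatine, Slc6a6 taurine and Slc43a3 purine nucleobases, so the label fits most members and not all of them. The libraries came from mouse colon epithelium, released from fresh colon with EDTA. The series design asks where Cdx2, a homeobox transcription factor of the gut lining, binds, and how open chromatin and the expression of its target genes change. Libraries labelled DKO came from mice of strain Cdx1-/-Cdx2f/f vill (+), and those labelled Wt from mice of strain Cdx1-/-Cdx2f/f vill (-). Both groups thus carry a Cdx1 null and a floxed Cdx2 genotype by their labels and differ in the vill tag, and both received tamoxifen for 6 days. RNA-seq had 2 DKO and 2 Wt libraries, and so had ATAC-seq, in which a transposase cuts and tags accessible DNA. A single Cdx2 ChIP-seq library, labelled Wt and untreated, had no replicate.

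Amino acid carriers work as uptake pumps, exchangers and efflux routes. The pumps are driven by sodium or protons, while the exchangers trade one amino acid for another. Several exchangers are heterodimers of a Slc3 heavy chain, which brings the complex to the cell surface, and a Slc7 light chain, which forms the transport path. In the gut these carriers serve absorption at the brush border and supply of the epithelial cell itself, and those that import cystine feed the synthesis of glutathione, the main small antioxidant of the cell.

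Estimated reads numbered 21197446 and 20069555 in the DKO and 16403301 and 25494309 in the Wt libraries of RNA. Values per library cannot be given for the carriers, because the read files carry transcript IDs and nothing used here pairs these with genes. Expression is therefore given as in the authors' deposited table: a mean normalized count over the 4 libraries, a log2 fold change of DKO over Wt with its standard error (SE), and a p-value adjusted by the authors over all 17511 genes, with 0.05 as the threshold. No label says that libraries of a group came from separate animals, so these p-values measure the spread between libraries, which may be technical. For Cdx2 the log2 value was -0.27 (SE of 0.21, adjusted p of 0.301) and for Cdx1, null by label in both groups but at a mean normalized count of 2595, it was -1.06 (SE of 0.23, adjusted p of 2.08e-05) in the authors' deposited table. Cdx2 thus shows no drop past the threshold, and Cdx1 reads were counted in libraries labelled as null for it, so the labels are not borne out by either value. Which part of either gene was deleted is not given in the sources used here. Of 12 markers of colon epithelium, 2 were higher and 5 were lower by the call in the authors' deposited table, with Epcam and Krt8 at mean counts of 39400 and 160000 and not called, and the goblet cell mucin Muc2 called lower at a log2 value of -4.95. All 16 markers of stroma, muscle and endothelium were called lower in the authors' deposited table (median log2 fold change -5.44), as were 7 of 10 markers of enteric neurons and glia (median -5.36) and 6 of 7 of B and plasma cells (median -2.46). Of 9 myeloid markers in the authors' deposited table, 5 were higher, 1 was lower and the median was 1.15, and 1 of 6 T cell markers was called higher. Fewer cells of a type and less RNA per cell cannot be told apart in such samples, and the part of these shifts in the carrier results was not tested.

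Of the 43 carriers, the authors' deposited table had 17 called higher and 7 lower in DKO, and 19 that did not pass. The median over the 43 was a log2 fold change of 0.30. Over all 17511 genes of the authors' deposited table the called share was 36.8%, with 18.5% higher and 18.3% lower and a median of -0.02, against 39.5% higher and 16.3% lower among the carriers. The 14532 protein-coding genes, from which the carriers were taken, had 40.9% called, with 21.1% higher, 19.9% lower and a median of -0.01. The other 228 protein-coding Slc genes had 23.7% called higher and 24.1% called lower in the authors' deposited table, with a median of -0.08. The 40 Slc25 mitochondrial carriers had 16 called higher and 6 called lower in the authors' deposited table, with a median of 0.27. The lean towards higher calls was thus not confined to the amino acid carriers among Slc genes. These shares are counts set side by side and were not tested against each other. The direction of the calls differed with abundance, among the carriers and over all genes. Of the 17 carriers whose mean normalized count was 500 or more in the authors' deposited table, 12 were called higher (70.6%) and 1 lower (5.88%). Over all 6591 genes at that abundance, 28.5% were called higher and 19.0% were called lower in the authors' deposited table. Among the 12 with a mean under 50 in the authors' deposited table, 0 were called higher and 3 lower. At an unadjusted p under 0.05, the authors' deposited table had 1 further carrier on the higher side, Slc7a2, and 3 on the lower side, Slc1a2, Slc6a11 and Slc6a14. Over all genes under a mean of 50, 4.58% were called higher and 15.7% were called lower in the authors' deposited table. Log2 fold change divided by SE returned the p of the authors' deposited table (within 0.01 in log10) for only 4 of the 43 members. The same held for only 1751 of all 17511 genes, so SE and p are separate descriptions of a gene.

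**Figure D1:**
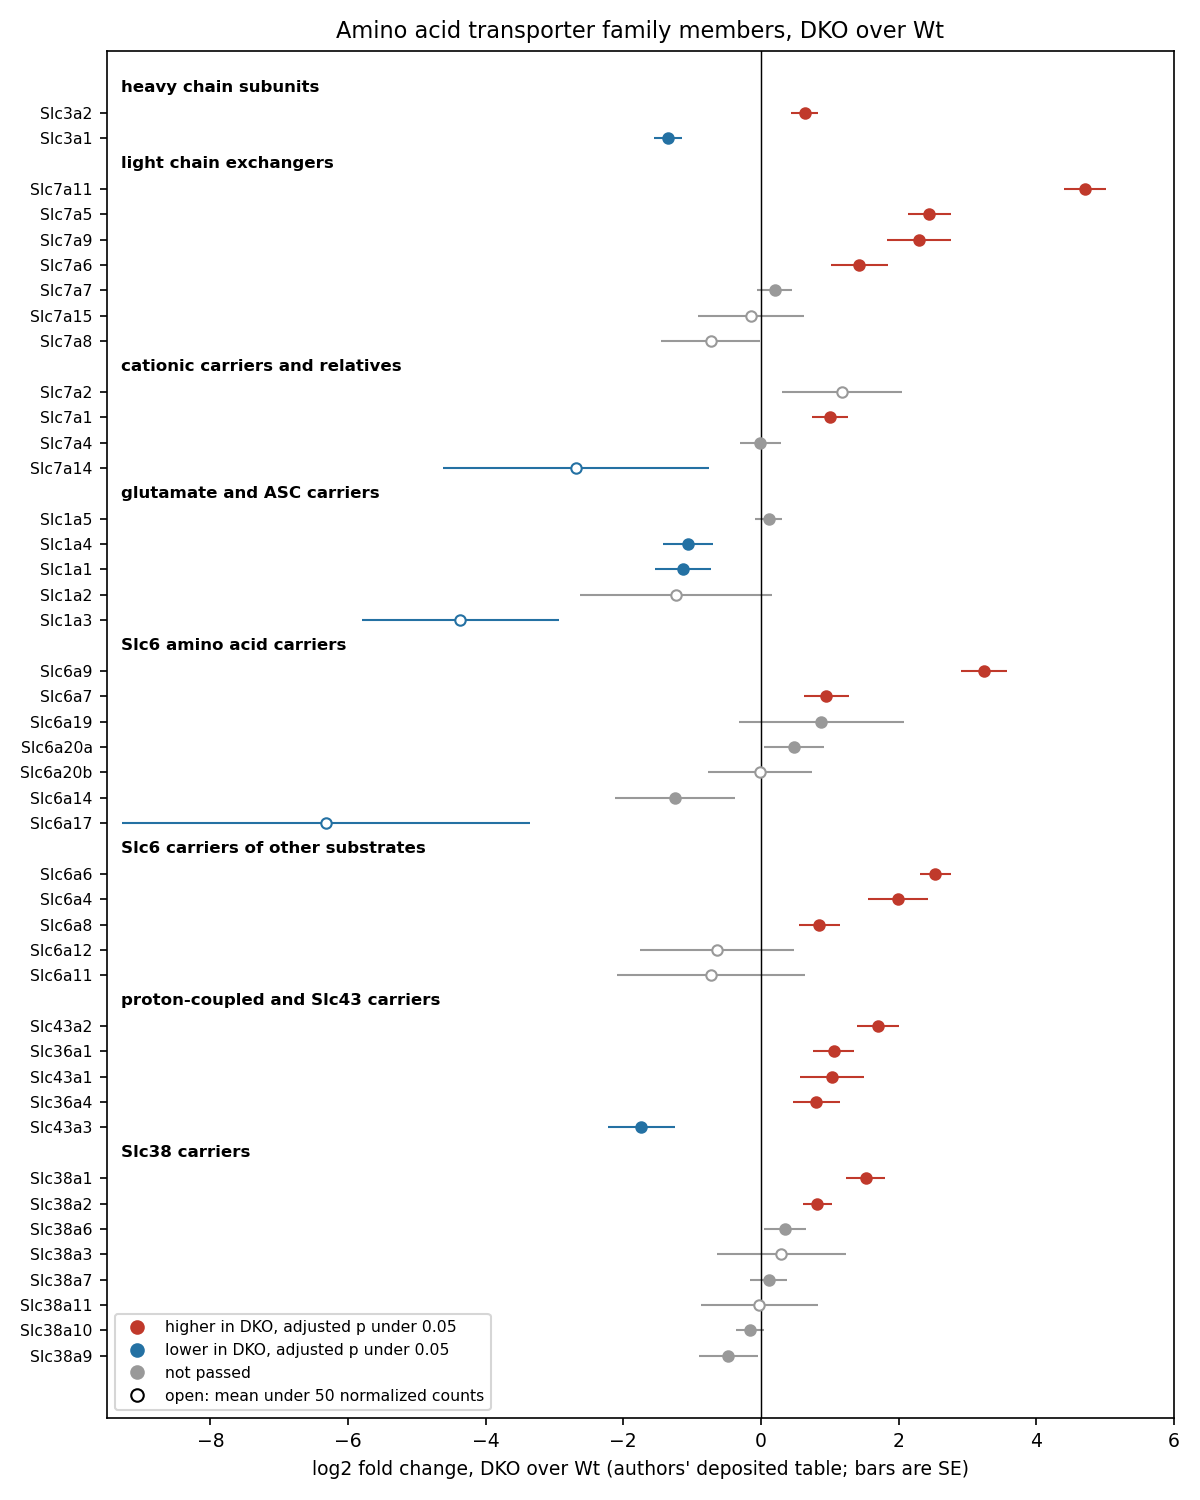
Log2 fold change (DKO over Wt) with SE bars from the authors' deposited table for the 43 members, grouped by role and, within a role, from highest to lowest. Red members were called higher and blue ones lower at an adjusted p under 0.05, grey ones did not pass, and open symbols mark means under 50 normalized counts. Slc7a11 stands highest at 4.71 and Slc6a17 lowest at -6.32, with an SE of 2.97.

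The heavy chains moved in opposite directions. Slc3a1 (rBAT), the heavy chain of the cystine and cationic amino acid exchanger of the brush border, fell by 1.35 on the log2 scale (SE of 0.21, adjusted p of 5.70e-10) at a mean normalized count of 1072 in the authors' deposited table. That is a level 2.55-fold higher in Wt. Slc3a2 (CD98hc), the heavy chain of most surface light chains, rose by 0.63 (SE of 0.20, adjusted p of 0.00410) at a mean normalized count of 1913 in the authors' deposited table, or 1.55-fold. Slc3a1 lies on chromosome 17, 85028347 to 85064241, and Slc3a2 on chromosome 19, 8706882 to 8723369 (GRCm38).

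Of 7 light chains, 4 rose and 0 fell, by the authors' deposited table. Slc7a11 (xCT), the antiporter that imports cystine in exchange for glutamate, rose by 4.71 (SE of 0.31, adjusted p of 6.11e-51) at a mean normalized count of 745 in the authors' deposited table. This 26.2-fold difference was the highest among the 43 members. Slc7a5 (LAT1), which imports large neutral amino acids such as leucine, rose by 2.45 (SE of 0.31, adjusted p of 1.46e-14) in the authors' deposited table, a 5.46-fold difference at a mean of 730 normalized counts. Both are partners of Slc3a2. Slc7a9 (b0,+AT), the light chain that pairs with Slc3a1, rose by 2.30 (SE of 0.46, adjusted p of 1.02e-06) at a mean normalized count of 544 in the authors' deposited table. Heavy and light chain of this brush border exchanger therefore changed in opposite directions. Slc7a6 (y+LAT2), an exchanger of cationic for neutral amino acids, rose by 1.43 (SE of 0.42, adjusted p of 0.000959) in the authors' deposited table. Its relative Slc7a7 (y+LAT1), a basolateral exit route for cationic amino acids, stood at 0.20 (SE of 0.26, adjusted p of 0.577) at a mean normalized count of 571 in the authors' deposited table and did not pass. Slc7a8 (LAT2) and the light chain relative Slc7a15 had mean normalized counts of 27.3 and 8.43, by the authors' deposited table, and did not pass.

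Of the heterodimers, Slc3a1 with Slc7a9 and Slc3a2 with Slc7a11 were chosen by their values. The partners of the first pair moved apart and those of the second rose together. Other light chains, such as Slc7a5, also pair with Slc3a2 and are not printed. For these 2 pairs the 250 bases before the start site are printed. They were read from RefSeq promoter windows of GRCm38.p6, 5′ to 3′ on the gene's strand: chr17:85028097-85028346 (+) for Slc3a1, chr7:35448842-35449091 (+) for the more upstream of 2 Slc7a9 starts, chr19:8713898-8714147 (-) for Slc3a2 and chr3:50443614-50443863 (-) for Slc7a11. Capitals mark matches, on either strand, to the Cdx core ATAAA and its longer forms CAATAAA and CCATAAA, to the amino acid response element TGATGNAAN and to the antioxidant response element TGACNNNGC.
Slc3a1: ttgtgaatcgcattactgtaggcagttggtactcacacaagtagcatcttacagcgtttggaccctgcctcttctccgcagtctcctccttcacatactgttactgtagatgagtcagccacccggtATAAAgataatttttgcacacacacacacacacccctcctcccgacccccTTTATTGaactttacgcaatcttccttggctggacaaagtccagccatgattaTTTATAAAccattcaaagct
Slc7a9: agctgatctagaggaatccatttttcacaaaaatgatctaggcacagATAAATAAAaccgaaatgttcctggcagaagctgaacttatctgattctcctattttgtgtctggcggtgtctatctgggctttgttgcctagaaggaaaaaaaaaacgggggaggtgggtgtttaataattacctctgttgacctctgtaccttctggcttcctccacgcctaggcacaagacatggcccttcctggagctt
Slc3a2: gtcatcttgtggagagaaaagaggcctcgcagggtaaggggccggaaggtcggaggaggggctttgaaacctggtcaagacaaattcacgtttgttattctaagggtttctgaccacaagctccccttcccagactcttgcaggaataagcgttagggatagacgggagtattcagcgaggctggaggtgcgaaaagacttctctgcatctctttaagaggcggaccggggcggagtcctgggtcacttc
Slc7a11: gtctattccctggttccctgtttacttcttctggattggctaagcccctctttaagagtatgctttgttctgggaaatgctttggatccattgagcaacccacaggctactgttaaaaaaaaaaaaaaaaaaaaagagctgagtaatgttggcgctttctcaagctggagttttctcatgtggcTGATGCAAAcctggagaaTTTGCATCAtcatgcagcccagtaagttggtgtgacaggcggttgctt
The Slc7a11 window held TGATGCAAA at 66 to 58 bases before the start. It also held TTTGCATCA, which is TGATGCAAA on the other strand, at 48 to 40 bases before the start. These were the only 2 matches in that window. This start lies inside the annotated Slc7a11 span (chromosome 3, 50364936 to 50499087), not at its end. In the Slc3a1 window TTTATTG, the CAATAAA form on the other strand, lay at 73 to 67 bases before the start, beside 3 further core matches, 2 of which overlap each other next to the start. The Slc7a9 window held 2 overlapping core matches, and the Slc3a2 window held no match to these 5 motifs. The Slc3a2 start also lies inside its annotated span, whose upstream end is at 8723369, and no window at that end was read. The same holds for Slc7a9, whose span begins at 35448727, so its printed window lies within the span.

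Such matches are common and are not binding sites by themselves. The core ATAAA was present in 12 of the 33 carriers with a promoter window, 36.4%, and in 41.1% of all 27025 genes with a window. CAATAAA was found in Slc3a1 alone among the 33, against 4.89% of all genes, and CCATAAA in Slc7a15 alone, against 2.83%. The amino acid response element was found in Slc7a11 and Slc7a7, 6.06% of the 33, against 3.89% of all genes. The antioxidant response element was found in 6 carriers (Slc38a2, Slc43a1, Slc6a11, Slc6a9, Slc7a1 and Slc7a6), 18.2%, against 11.5% of all genes. ATAAA lies within both longer Cdx forms, so these counts overlap. The 27025 genes include genes outside the authors' deposited table, so they are not the same kind of set as the 33 carriers. A gene with several windows counted if any of them held a match.

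Among the cationic carriers and their relatives, Slc7a1 (CAT1), the general importer of arginine and lysine, rose by 1.00 (SE of 0.26, adjusted p of 0.000335) at a mean normalized count of 658 in the authors' deposited table. Slc7a2 (CAT2) stood at 1.17 (SE of 0.87, adjusted p of 0.108) and Slc7a4 at -0.01 (SE of 0.30, adjusted p of 0.989) in the authors' deposited table, and neither passed. Slc7a14, a relative of the cationic carriers, was called lower at -2.69 (SE of 1.93, adjusted p of 0.0256), and its mean normalized count was 12.3 in the authors' deposited table.

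In the Slc1 family the calls of the authors' deposited table went down, with 3 of 5 members lower and 0 higher. Slc1a1 (EAAT3), the epithelial importer of glutamate and aspartate, fell by 1.13 (SE of 0.41, adjusted p of 0.00853) at a mean normalized count of 471 in the authors' deposited table. Slc1a4 (ASCT1), an exchanger of alanine, serine and cysteine, fell by 1.06 (SE of 0.36, adjusted p of 0.00658) at a mean normalized count of 447 in the authors' deposited table. Slc1a5 (ASCT2), the related exchanger that also takes glutamine, stood at a log2 value of 0.11 (SE of 0.20, adjusted p of 0.712) at a mean normalized count of 2909 in the authors' deposited table and did not pass. Slc1a3 (EAAT1), best known from glia, was called lower at -4.37 (SE of 1.43, adjusted p of 0.00103) at a mean normalized count of 19.7 in the authors' deposited table, and the glial transporter Slc1a2 (EAAT2) stood at -1.24 (SE of 1.39, adjusted p of 0.100) and did not pass. Beside Slc1a3, Slc7a14 and the synaptic vesicle carrier Slc6a17 stand the neuronal and glial markers, among them Prph at -8.03, Uchl1 at -5.38, Sox10 at -6.69 and Gfap at -5.34 in the authors' deposited table. S100b (0.09) did not pass in the authors' deposited table, and Ret was called higher at 1.62. Whether a change in these cells enters the 3 low-count calls was not tested.

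Of 7 Slc6 carriers of amino acids, 2 were higher and 1 was lower by the call in the authors' deposited table. Slc6a9 (GlyT1), which imports glycine with sodium and chloride, rose by 3.24 (SE of 0.33, adjusted p of 1.13e-21) at a mean normalized count of 2136 in the authors' deposited table, a 9.48-fold difference. Slc6a7 (PROT), a proline transporter known from brain, rose by 0.95 (SE of 0.33, adjusted p of 0.00743) at a mean normalized count of 218 in the authors' deposited table. Slc6a17, which loads neutral amino acids into synaptic vesicles, was the lower one at -6.32 (SE of 2.97, adjusted p of 0.00117), at a mean normalized count of 11.8 in the authors' deposited table. The broad importer Slc6a14 (ATB0,+) was abundant, at a mean normalized count of 3601 in the authors' deposited table, with a log2 fold change of -1.25 and a wide SE of 0.88 (adjusted p = 0.0861). Slc6a19 (B0AT1), the main sodium-driven importer of neutral amino acids in the small intestine, stood at 0.88 (SE of 1.20, adjusted p of 0.187) in the authors' deposited table. The proline carriers Slc6a20a (0.47) and Slc6a20b (-0.01) did not pass in the authors' deposited table either, and reads could be split between these near copies.

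Of the 5 Slc6 carriers of other substrates, 3 rose and 0 fell in the authors' deposited table. Slc6a6 (TauT), the taurine importer, rose by 2.54 (SE of 0.22, adjusted p of 1.93e-28) at a mean normalized count of 6753 in the authors' deposited table, a 5.80-fold difference. Slc6a8, the creatine importer, had the highest mean of the 43, 12152 normalized counts, and rose by 0.85 (SE of 0.30, adjusted p of 0.00989) in the authors' deposited table. Slc6a4 (SERT), through which gut epithelium clears serotonin, rose by 2.00 (SE of 0.44, adjusted p of 8.38e-06) at a mean normalized count of 461 in the authors' deposited table. The GABA carrier Slc6a11 and the betaine and GABA carrier Slc6a12 had mean normalized counts of 4.63 and 7.06, by the authors' deposited table, and did not pass.

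All 5 members of Slc36 and Slc43 were called in the authors' deposited table, 4 of them higher. Slc43a2 (LAT4), which lets branched-chain amino acids, methionine and phenylalanine leave the cell, rose by 1.70 (SE of 0.30, adjusted p of 8.73e-08) at a mean normalized count of 647 in the authors' deposited table. Its relative Slc43a1 (LAT3) rose by 1.03 (SE of 0.46, adjusted p of 0.0353) at a mean normalized count of 78.6 in the authors' deposited table. Slc36a1 (PAT1), which moves small neutral amino acids together with protons, rose by 1.06 (SE of 0.30, adjusted p of 0.00123) in the authors' deposited table. Its relative Slc36a4 (PAT4), a carrier of proline and tryptophan, rose by 0.81 (SE of 0.34, adjusted p of 0.0324) in the authors' deposited table. Slc43a3, a purine nucleobase carrier rather than an amino acid carrier, fell by 1.74 (SE of 0.49, adjusted p of 0.000528) at a mean normalized count of 76.9 in the authors' deposited table. The endothelial markers Kdr, Cdh5 and Pecam1 stood at -6.20, -5.60 and -1.49 in the authors' deposited table beside it, and their part in that value was not tested.

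Within Slc38, 2 of 8 members were higher and none was lower by the call in the authors' deposited table. Slc38a1 (SNAT1), a sodium-driven importer of glutamine and small neutral amino acids, rose by 1.52 (SE of 0.28, adjusted p of 3.35e-07) at a mean normalized count of 1303 in the authors' deposited table. Slc38a2 (SNAT2), known for its induction by amino acid shortage, rose by 0.82 (SE of 0.21, adjusted p of 0.000315) at a mean normalized count of 2268 in the authors' deposited table. The lysosomal carriers Slc38a7, which exports glutamine, and Slc38a9, which senses arginine for mTORC1, stood at 0.11 (SE of 0.27) and -0.48 (SE of 0.43) in the authors' deposited table and did not pass. Slc38a10, at a mean of 2267, stood at -0.15 (SE of 0.20, adjusted p of 0.593) in the authors' deposited table. Slc38a6 (0.35), Slc38a3 (0.30) and Slc38a11 (-0.02) did not pass in the authors' deposited table, the last 2 at means of 4.67 and 5.09 normalized counts.

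Genes that work beside these carriers were read from the same source. The shares of each list can be set beside those of all genes at a mean normalized count of 500 or more, 28.5% called higher and 19.0% called lower. No list was tested against that level. Of 18 genes of glutathione synthesis and antioxidant defence, the authors' deposited table had 12 called higher (66.7%) and 2 called lower (11.1%). The median log2 fold change was 0.73. Gclc, the catalytic subunit of the enzyme that joins glutamate to cysteine, rose by 3.71 (SE of 0.25, adjusted p of 1.16e-48) at a mean normalized count of 9760 in the authors' deposited table. Nqo1, a quinone reductase, rose by 2.54 (SE of 0.19, adjusted p of 6.16e-39) and Gsr, glutathione reductase, by 2.08 (SE of 0.22, adjusted p of 3.10e-20) in the authors' deposited table. The lower pair, named after their values were seen, were Gpx4 at -0.68 and Ggt1 at -1.07 in the authors' deposited table. Genes of the amino acid response, a programme of the factor Atf4 when amino acids run short, went both ways. Of 27, the authors' deposited table had 8 called higher (29.6%), 9 called lower (33.3%) and a median of 0.06. The list is not one of Atf4 targets alone, since it holds Atf4 and the kinases Eif2ak3, called higher, and Eif2ak4, not called. Ddit4, an inhibitor of mTORC1, rose by 2.94 (SE of 0.26, adjusted p of 4.18e-29) and Psat1, an enzyme of serine synthesis, by 2.58 (SE of 0.27, adjusted p of 4.36e-20) in the authors' deposited table. The stress gene Nupr1 fell by 2.13 (SE of 0.20, adjusted p of 2.35e-26) in the authors' deposited table. Atf4 itself (0.06) and its target Asns, asparagine synthetase (-0.03), did not pass in the authors' deposited table. Of 26 genes of amino acid metabolism, the authors' deposited table had 9 called higher (34.6%) and 4 called lower (15.4%). The median was 0.46. The arginase Arg2 rose by 2.18 (SE of 0.29, adjusted p of 3.58e-13) and glutamate dehydrogenase, Glud1, by 1.50 (SE of 0.22, adjusted p of 7.19e-11) in the authors' deposited table. P4ha1, a subunit of collagen prolyl hydroxylase, fell by 2.57 (SE of 0.36, adjusted p of 3.34e-12) in the authors' deposited table.

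**Figure D2:**
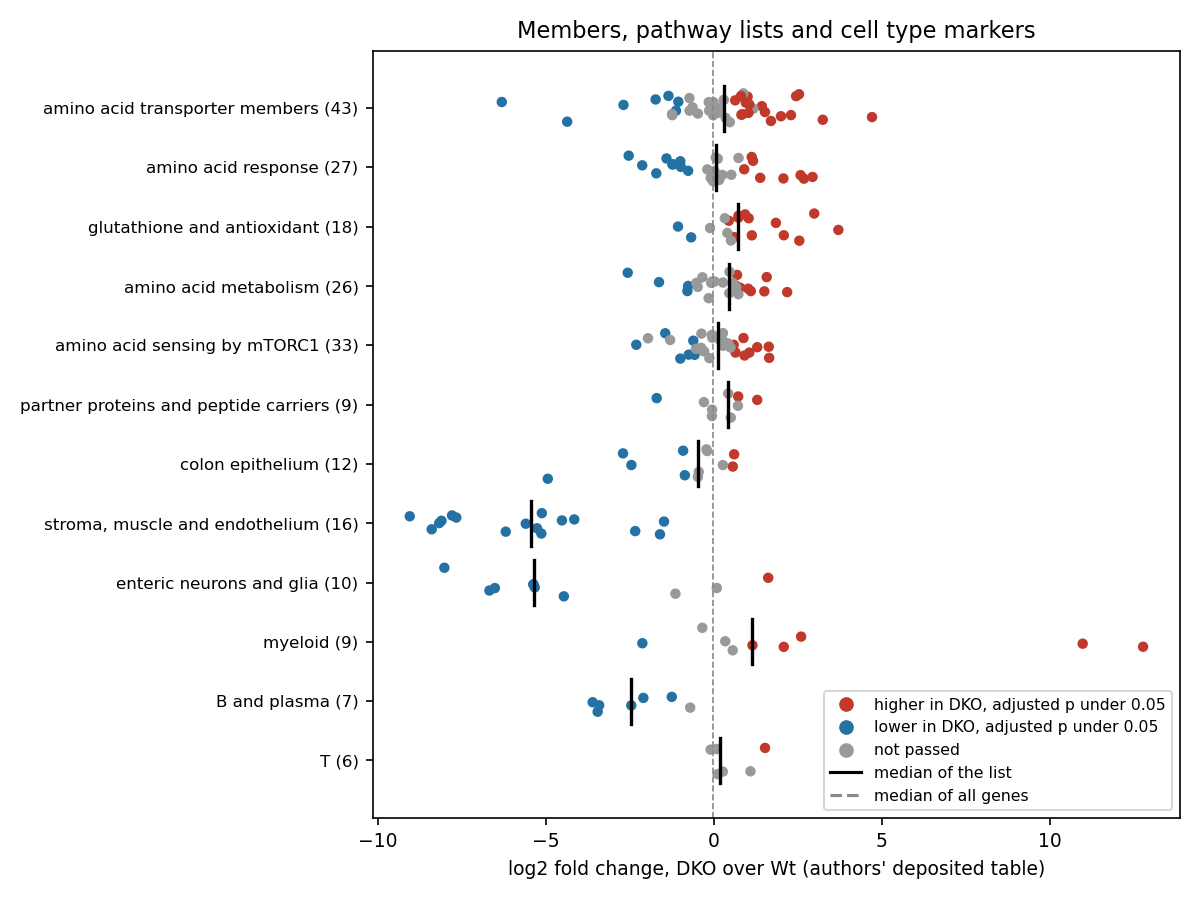
Log2 fold change (DKO over Wt) of each gene of the authors' deposited table for the 43 members, 5 pathway lists and 6 lists of cell type markers, 1 point a gene, with red called higher, blue called lower and grey not passed. Black bars are list medians and the dashed line is the median of all genes at -0.02. The member median lies at 0.30, that of the glutathione list at 0.73 and that of the stromal markers at -5.44.

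Chromatin was read from peak lists that the authors called in each ATAC library, with 40101 and 23961 entries for DKO against 48163 and 53943 for Wt. Each peak carries the authors' fold enrichment over local background, and the median over a list was 3.90 and 3.77 in DKO against 4.95 and 4.88 in Wt. A start site was counted as open in a library where a peak lay within 1 kb of it, which could be done for the 33 carriers with a RefSeq start. The start was open for 10 and 12 of the 33 carriers in the DKO lists, against 25 and 28 in the Wt lists. These are 30.3% and 36.4% of the carriers in DKO and 75.8% and 84.8% in Wt, where all 11488 protein-coding genes with a start gave 29.0% and 45.0% in DKO and 81.6% and 83.6% in Wt. A gene with several starts was counted as open if any of them was. In 10 of the 33 the start carried a peak in both Wt lists and in neither DKO list, against 32.9% of all these genes, so the carriers' 30.3% lay near the level of genes in general. A start with a peak in both DKO lists and in neither Wt list was found for 0 of the 33, where all genes gave 0.192%. With 2 libraries against 2, an exact test of 1 start site cannot pass the threshold, and none was run.

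Slc7a11, the member that rose furthest, had no peak within 1 kb of its start in either DKO list, against peaks of 11.0-fold and 9.22-fold enrichment in Wt. The Slc3a1 start had none in DKO against 5.35 and 5.19 in Wt, and the Slc3a2 start none in DKO against 6.30 and 7.01 in Wt. At the upstream end of the Slc3a2 span, away from this start, chr19:8722932-8723508 had peaks of 9.53 and 7.82 in Wt and none in DKO. The other members with no DKO peak at the start and peaks in both Wt lists were Slc6a9, Slc1a3, Slc6a14, Slc7a7, Slc7a8, Slc38a7 and Slc38a10. This pattern at the start was thus found in 3 members called higher (Slc7a11, Slc3a2 and Slc6a9), 2 called lower (Slc3a1 and Slc1a3) and 5 not called in the authors' deposited table. Both response element matches of Slc7a11 lay inside the start-site peak of Wt replicate 2, and between 2 separate peaks in Wt replicate 1. TTTATTG of Slc3a1 lay inside a 3.34-fold peak that was listed in Wt replicate 2 alone.

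In 7 carriers the start had a peak in all 4 lists (21.2%, against 23.7% of all genes), and fold enrichment was lower in both DKO lists than in both Wt lists in each of them. The number of such carriers was 12 without DKO replicate 1 and 3 with only peaks of -log10 q of at least 3. Slc38a6 had 3.95 and 5.69 in DKO against 12.1 and 10.7 in Wt, and Slc7a1 had 4.07 and 3.71 in DKO against 8.63 and 8.52 in Wt. Slc1a4 had 3.99 and 3.57 in DKO against 8.47 and 9.48 in Wt. The groups lay closest in Slc7a14, with 3.95 and 3.83 in DKO against 4.29 and 4.59 in Wt. The median log2 ratio of DKO to Wt enrichment was -0.95 over these 7 and -0.98 over the 2726 genes with such starts, of which 2718 were below 0. The lower enrichment in DKO was therefore a property of nearly all such start sites and cannot be told apart from a difference between the libraries.

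**Figure D3:**
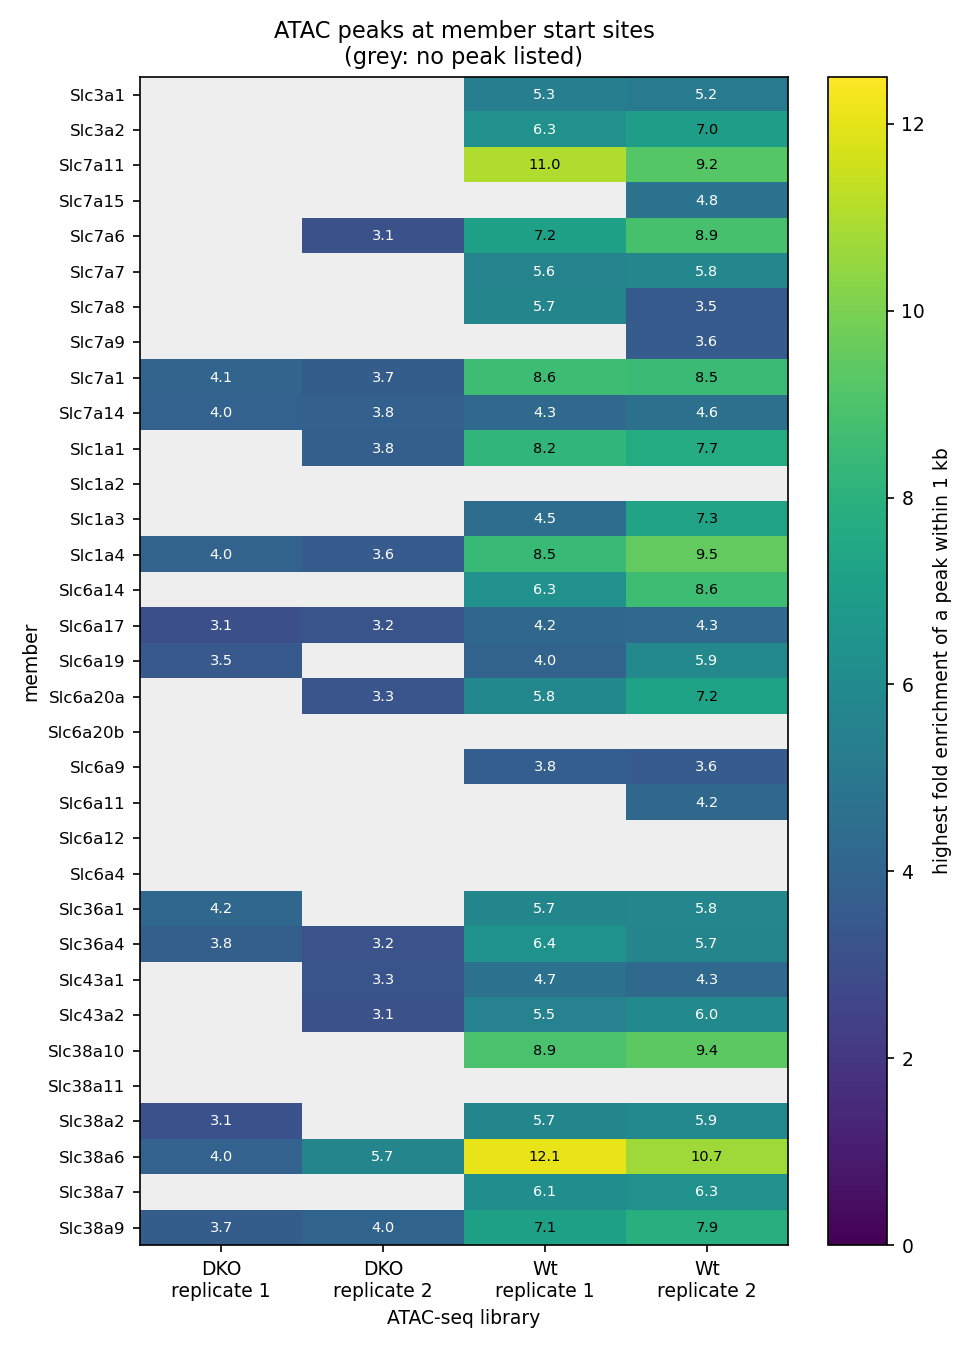
Highest fold enrichment of an ATAC peak within 1 kb of the start site (colour and number) for 33 members (rows, by role) in 2 DKO and 2 Wt libraries (columns). Grey cells have no listed peak. Peaks were listed for 10 and 12 members in DKO and for 25 and 28 in Wt.

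Around the genes the picture was similar. Within the gene span and 10 kb on either side, 33 of 43 carriers (76.7%) had a region open in both Wt lists and in neither DKO list, against 71.0% of 14413 protein-coding genes. A region open in both DKO lists and in neither Wt list was found for 8 carriers (18.6%, against 14.6%). That count was 20 without DKO replicate 1 and 26 without DKO replicate 2. Such Wt-only regions stood beside 16 of the 17 carriers called higher, against 70.5% of all genes called higher, and beside 4 of the 7 called lower, against 72.5%. All 17 had a mean normalized count of at least 50 in the authors' deposited table. At that abundance, 8 of 10 carriers not called and 3 of 4 called lower had such a region too. Carrier spans were also longer, with a median of 35895 bp against 23095 bp over the 14413 genes. Wt-only regions were most numerous around Slc6a9, with 7, and Slc38a1, with 6, both of which rose. At Slc7a5 both DKO lists held 0 peaks and both Wt lists 3. At Slc3a1 the DKO lists held 0 peaks each and the Wt lists 6 each. Another protein-coding gene lay in the window of 25 of the 43 carriers, 2 of them in that of Slc3a1, so a region cannot be assigned to the carrier itself.

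Cdx2 peaks stood near 6 of the 43 carriers (14.0%), against 19.0% of all 14413 genes. Of these 6, the authors' deposited table called Slc6a6, Slc43a2 and Slc38a1 higher and Slc3a1 lower, and did not call Slc7a7 and Slc6a20b. Of all genes with a Cdx2 peak, the authors' deposited table had 44.6% called, with 20.4% higher and 24.2% lower, against 40.2% called of those without one. Slc3a1 held 2 of the 8 peaks. The first lay 4907 bases after its start (chr17:85033148-85033360, 4.43-fold enrichment) and under no ATAC peak. The second lay 15108 bases after the start (chr17:85043335-85043576, 5.71-fold) under peaks of 6.67 and 3.55 in the Wt libraries, with none in DKO. Slc43a2 held a peak of 4.93-fold at chr11:75560678-75561093 and Slc7a7 one of 4.98-fold at chr14:54379622-54379825, both likewise under ATAC peaks of both Wt and neither DKO list. These 3 of 8 compare with 30.2% of all 5179 Cdx2 peaks. The peak of highest enrichment, 8.69-fold and rank 468 of 5179, lay in Slc6a20b, a member at a mean normalized count of 8.67 in the authors' deposited table, and under no ATAC peak. Of the 6 peaks whose distance to a start could be measured, the nearest was the one at 4907 bases. Slc6a6 and Slc38a1 have no start in the table used, so their peaks' distance was not measured.

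**Figure D4:**
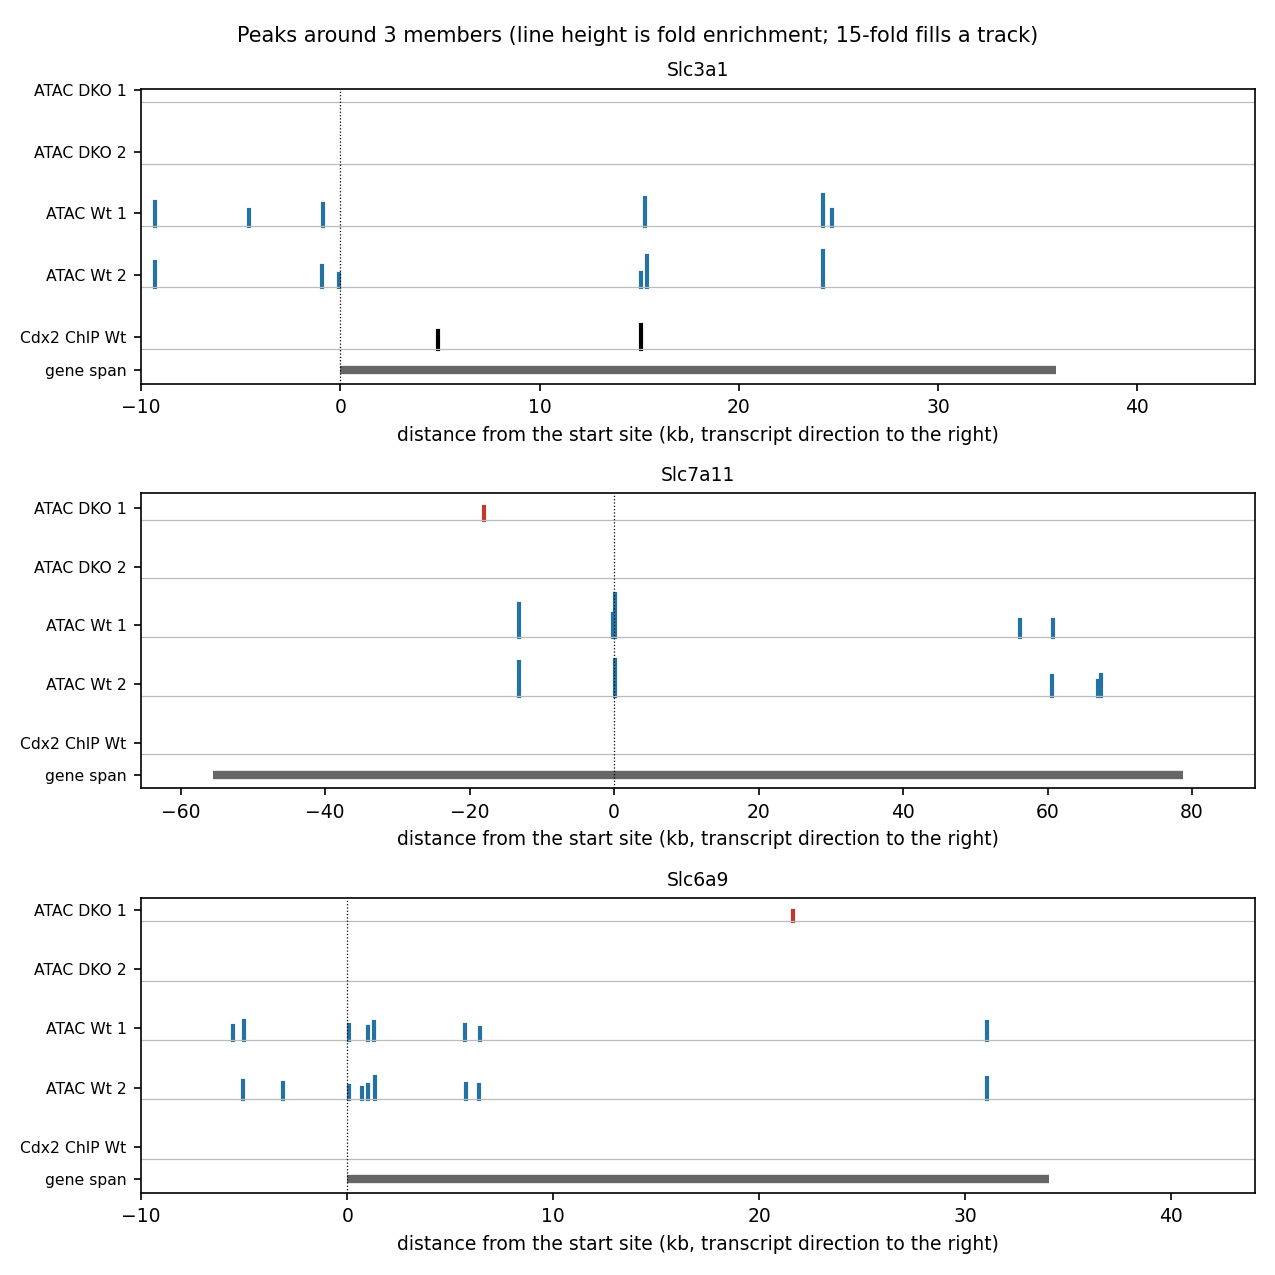
ATAC peaks of 2 DKO (red) and 2 Wt (blue) libraries and Cdx2 peaks (black) around Slc3a1, Slc7a11 and Slc6a9, by distance from the start site in kb, with line height as fold enrichment and the gene span as a grey bar. Slc3a1 had 0 and 0 peaks in DKO against 6 and 6 in Wt, and Slc7a11 and Slc6a9 had 1 and 0 in DKO against 5 and 5, and 8 and 9, in Wt.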

How the data were processed

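Libraries were grouped by title into DKO and Wt. Per the submitters' processing notes, Salmon 1.3.0, DESeq2, MACS2, fastp, Bowtie2 and BWA were used with mm10 and GRCm38, without stated roles. Per the file headers, the deposited estimated count per transcript came from Salmon; here it gave library totals only. The gene table's mean normalized count is a signal the authors scaled between libraries, and its log2 fold change, SE, p-value and adjusted p are the authors' own. The deposited adjusted p equals a Benjamini-Hochberg adjustment over 17511 genes. Peak lists, called per library, give the authors' fold enrichment (a ratio), -log10 p, -log10 q and a score, per the file headers.

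The members and lists were chosen with earlier results of these data known. The planned gene-level count test was not run, since no table pairs transcripts with genes. All 43 members are named, with values for those called or whose mean normalized count was 500 or more, and up to 3 genes of smallest p in each list, except a gene that is not reported here. Regions are unions of ATAC peaks overlapping by at least 1 bp. Spans, starts and promoters came from RefSeq tables of GRCm38.p6, the assembly also called mm10, matched by gene ID or symbol for 14413 of 14532 protein-coding genes, all 43 members included. Python 3.11.15, numpy 2.4.6, pandas 2.3.3 and scipy 1.17.1 were used, and region building and adjustment were tested on simulated data. Intervals cannot be given for peaks, whose files hold no read counts.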

Additional observations from a re-analysis of the deposited data

How the results depend on the processing

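No paired analysis was possible because the gene-level values come from the authors' deposited table, which holds no value per library, and peak lists gave counts without a test. For the same reason the planned gene-level alternatives (another normalization, no filter, each library left out) were not run. The 17 higher and 7 lower calls were 15 and 6 at an adjusted p under 0.01 and 12 and 7 at 2-fold or more. With a mean of at least 50 and p readjusted, 17 higher and 4 lower were left, and the median log2 fold change was 0.82. Without 6 members known mainly from neurons, glia or endothelium (Slc1a2, Slc1a3, Slc6a11, Slc6a17, Slc7a14 and Slc43a3), a choice made after seeing the data that held 4 lower and 0 higher calls, 17 and 3 were left, and 16 and 3 with the brain transporter Slc6a7 also left out. Start sites open in all 4 lists numbered 3 with peaks of -log10 q of at least 3. Leaving out 1 ATAC library at a time gave 33 to 38 members with Wt-only regions, 8 to 26 with DKO-only regions, 10 to 15 with Wt-only starts, 0 with DKO-only starts and 7 to 12 with starts open in all lists left, the last count reaching 12 without DKO replicate 1, and the start-site values were added after seeing the data. Members near a Cdx2 peak numbered 13 within 25 kb, 7 of them called, and 18 within 50 kb, and 3 where the peak had to lie under an ATAC peak of both Wt libraries, which was added after seeing the data. The share over all genes, 19.0%, was counted at 10 kb alone, so these counts have no background beside them and nothing was read from them. The cause of these shifts was not tested, beyond the fewer genes or wider windows of each setting. Depth of the peak libraries is unknown, and an unlisted peak does not show closed chromatin.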

Other observations

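Genes through which amino acids control the growth kinase mTORC1 were called in both directions, at shares near those of genes in general. Of 33, the authors' deposited table had 8 called higher (24.2%), 6 called lower (18.2%) and a median of 0.13. Among all genes at a mean normalized count of 50 or more, 24.7% were called higher and 19.5% were called lower in the authors' deposited table. The list was not tested against that level. Mtor itself, named after its value was seen, rose by 1.29 (SE of 0.26, adjusted p of 3.35e-06) in the authors' deposited table. Nprl2, a subunit of the complex that restrains mTORC1 when amino acids are scarce, fell by 2.31 (SE of 0.33, adjusted p of 6.75e-12) in the authors' deposited table. Tfeb, a transcription factor of lysosome genes, fell by 1.45 (SE of 0.27, adjusted p of 2.73e-07) and Fnip2, a folliculin partner, rose by 1.63 (SE of 0.32, adjusted p of 8.54e-07) in the authors' deposited table.

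Among 9 partner proteins, brush border peptidases and peptide carriers, the authors' deposited table had 2 called higher (22.2%) and 1 called lower (11.1%). The median was 0.43. Both shares lay below those of all genes at a mean normalized count of 500 or more, 28.5% and 19.0%. The brush border peptidase Dpp4 rose by 0.72 (SE of 0.23, adjusted p of 0.00516) in the authors' deposited table. Xpnpep2, an aminopeptidase that frees proline-linked residues, fell by 1.70 (SE of 0.39, adjusted p of 2.13e-05) in the authors' deposited table. The peptide importer Slc15a1 (PepT1) stood at -0.05 (SE of 0.34, adjusted p of 0.921) at a mean normalized count of 1130 in the authors' deposited table and did not pass.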
